A study of Mus musculus with 26 samples.

Results

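The control MII oocyte and the control early 2-cell embryo (E2C) were compared for every gene with a level of at least 1 TPM in at least 2 of 4 libraries, 2 of each stage. TPM is a gene's share of a library's messages, corrected for transcript length and scaled to the same total in each library. These members were 11937 of the 24412 genes in the deposited table, and the 4 libraries were 4 of the 26 in the series. The stage labels were borne out by oocyte transcripts such as *Gdf9* and *Mos* in MII and by *Zscan4* transcripts in E2C, with values given below.

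The series asks what the histone H3 lysine 9 demethylases KDM3A and KDM3B, left in the egg by the mother, do in the first cleavages. Both genes were floxed in the mothers and deleted by Zp3-Cre, whose promoter works in the growing oocyte, and IVF with sperm of wild-type males gave maternal double knockout (mDKO) embryos. Uninjected MII, E2C and late 2-cell (L2C) stages and injected E2C and 4-cell embryos were sequenced as polyA RNA from C57BL/6J mice, in 13 groups of 2 libraries. Each MII or E2C library came from a pool of 12 to 20 oocytes or embryos freed of the zona, and nothing in the labels tells if pools differ in their mothers, so that p-values measure the spread between pools, which may be technical. The alleles carried by the control females are not given, and an embryo's messages here still hold those stored in the egg. The MII libraries were made with a TruSeq Stranded mRNA kit and the E2C libraries with a SMART-Seq kit, either v4 Ultra-Low-Input or its successor mRNA LP, without a record per library; the L2C kit is not given. Stage and kit therefore cannot be told apart in any difference between MII and E2C, and the values describe these 4 libraries.

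A fully grown oocyte stops transcription and lives on messages stored with short poly(A) tails by proteins such as MSY2 and ZAR1. Meiotic maturation and fertilisation set off clearance of many of them, first by maternal factors such as BTG4, which brings the CCR4-NOT deadenylase to the message, and later by factors made by the embryo. A small first wave of transcription, minor genome activation, begins in the zygote and is marked at the 2-cell stage by *Zscan4*, *Usp17l*, *Dux* and related genes, before the main wave in the late 2-cell embryo. TPM gives a share and not an amount: an egg that loses much of its mRNA can show a higher TPM for a message that did not change in copies, and a longer poly(A) tail can raise a message's recovery with no new transcription.

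Leaving out predicted genes and small RNAs, *Zscan4* genes and *Obox4*, at or near 0 in MII, were among the largest rises. *Oog1*, *Bub1b* and *Mos*, abundant in MII, were among the largest falls. With limma on log2(TPM + 1), 3724 genes were higher in E2C (31.2% of those tested) and 4104 lower (34.4%), at a Benjamini-Hochberg adjusted p under 0.05 and a difference of at least 1 on the log2(TPM + 1) scale, where low genes show less than their true change. In all 7828 called genes both libraries of one stage lay above both of the other. A call nearly requires this with 2 libraries against 2, so it is no separate support for the called genes. A further 4109 genes were not called. The 2 libraries of a stage were alike, with Pearson's r across all genes of 0.991 in MII and 0.989 in E2C on the log scale, although 3.56% of the tested genes differed by at least 1 between the MII libraries and 1.07% between the E2C libraries. The number of genes at 1 TPM or more was 10527 and 10573 in the MII libraries and 11085 and 10941 in the E2C libraries; the read depth is unknown. Leaving out 1 E2C library lowered the higher calls to 2908 or 3034 on the same genes and to 2381 or 2513 where genes were chosen on the 3 remaining libraries.

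**Figure D1:**
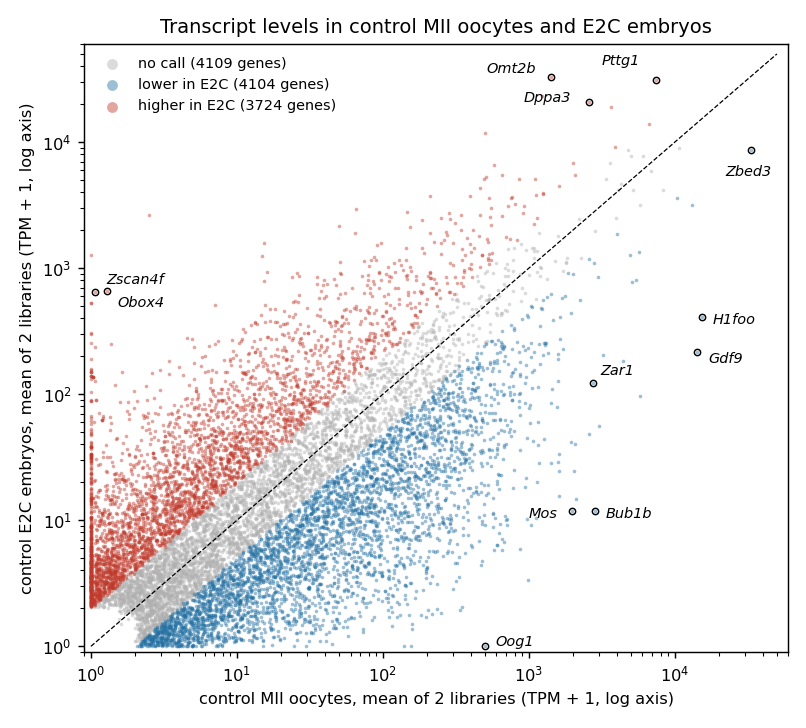
Each point is 1 of the 11937 genes tested, with its mean TPM + 1 in the 2 control MII libraries on the x axis and in the 2 control E2C libraries on the y axis, both on log scales. The 3724 genes called higher lie above the diagonal and the 4104 called lower below it, and the genes near the y axis at the upper left were close to 0 in MII.

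Transcript length moved with the difference and is given here because it touches the gene groups below. Length and GC content are those of a gene's longest annotated transcript, which need not be the one expressed here. Genes called higher had a median transcript length of 2138 nt, against 3998.5 nt for those called lower and 3295 nt for those not called, and a median GC content of 47.2%, 50.8% and 48.3%. When genes were put in 10 bins of equal size by length, of the shortest bin, with a median of 883 nt, 69.5% were higher in E2C and 5.99% lower, whereas of the longest bin, with a median of 8156 nt, 12.1% were higher and 53.7% lower. Across 11844 genes Spearman's rho of the difference with length was -0.41 and with GC content -0.24, a description across genes that share the same 4 libraries. Stage and kit cannot be told apart in this relation. As an alternative chosen after seeing the data, each gene's difference was set against the median of genes of like length and GC content (length and GC centring). This left 2930 genes higher and 3631 lower of 11844, among them 2228 and 2860 of the genes called before. Groups of genes are given below with the counts under both, and their counts as deposited are to be read against the 31.2% higher and 34.4% lower of all genes, and their centred counts against 24.7% and 30.7%.

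**Figure D2:**
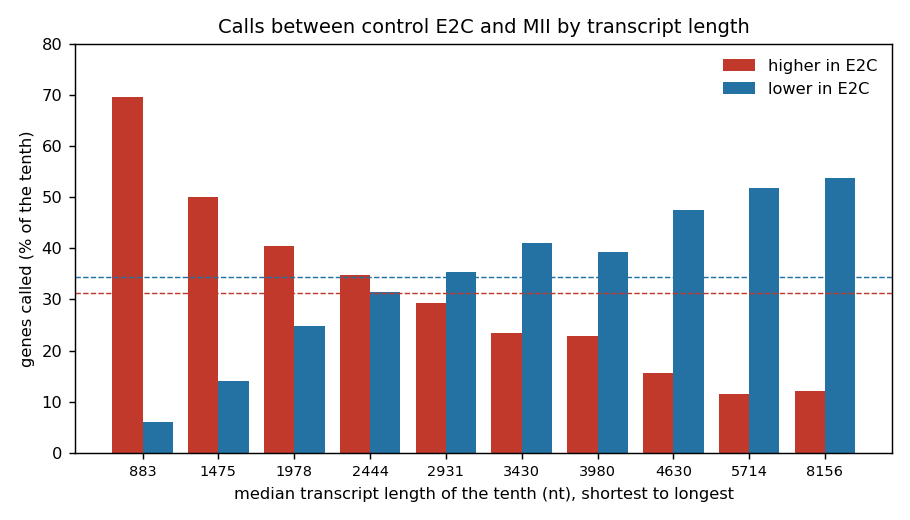
Bars give the percent of genes called higher (red) and lower (blue) in control E2C in each of 10 equal bins of the 11844 genes by transcript length, with the bin's median length on the x axis and dashed lines at the shares over all genes, 31.2% and 34.4%. The share called higher runs from 69.5% in the shortest bin to 12.1% in the longest.

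The most abundant messages of the oocyte included both kinds of fate. *Zbed3*, which codes for a zinc finger protein of the subcortical maternal complex, fell from 32636 and 33766 TPM to 8754 and 8427 TPM, where the first pair of values is MII replicates 1 and 2 and the second is E2C replicates 1 and 2. *H1foo*, the oocyte linker histone (H1f8 in RefSeq), fell from 15370.4 and 15123 TPM to 389 and 435 TPM, a difference of -5.21 ± 0.09 (SE) and 37.03-fold on mean TPM. *Gdf9*, a growth factor that the oocyte secretes to its follicle cells, fell from 14404 and 14089 TPM to 224 and 209 TPM, or 65.9-fold. All 3 were lower in both E2C libraries than in either MII library. *C86187* also fell, from 12889 and 13379 TPM to 3269 and 3023 TPM. *Bcl2l10*, an anti-apoptotic BCL2-family gene, was among the 5 most abundant messages of MII and was not called, at 11084 and 10348 TPM in MII and 8921 and 8875 TPM in E2C, a difference of -0.27 ± 0.08.

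The messages that led in E2C were mostly maternal ones already present in MII. The oocyte maturation gene *Omt2b* rose from 1212 and 1627 TPM to 31139 and 35018 TPM, a difference of 4.55 ± 0.15, and its neighbour *Omt2a* from 1108 and 1348 TPM to 22009 and 24328 TPM. *Dppa3*, whose product Stella guards the maternal genome against loss of DNA methylation, rose from 2482 and 2649 TPM to 19715 and 21744 TPM, or 8.08-fold (3.01 ± 0.09). Neither gene's libraries overlapped between the stages, and with length and GC centring *Omt2b* kept a difference of 2.46 and *Dppa3* one of 1.02. *Pttg1*, the gene of securin, which holds back the separation of chromosomes, rose from 7297 and 7513 TPM to 30931 and 31638 TPM and was at 4577 and 4673 TPM in L2C. *Mphosph6*, an RNA exosome cofactor, rose from 3343 and 3931 TPM to 17329 and 20533 TPM. The calls of *Pttg1* and *Mphosph6* were lost with length and GC centring, at 0.38 and 0.68. The 10 most abundant genes of MII made up 12.4% and 12.8% of all TPM in the MII libraries and 7.89% and 8.14% in the E2C libraries. The 10 most abundant of E2C made up 4.16% and 4.41% in MII and 17.1% and 18.9% in E2C.

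**Figure D3:**
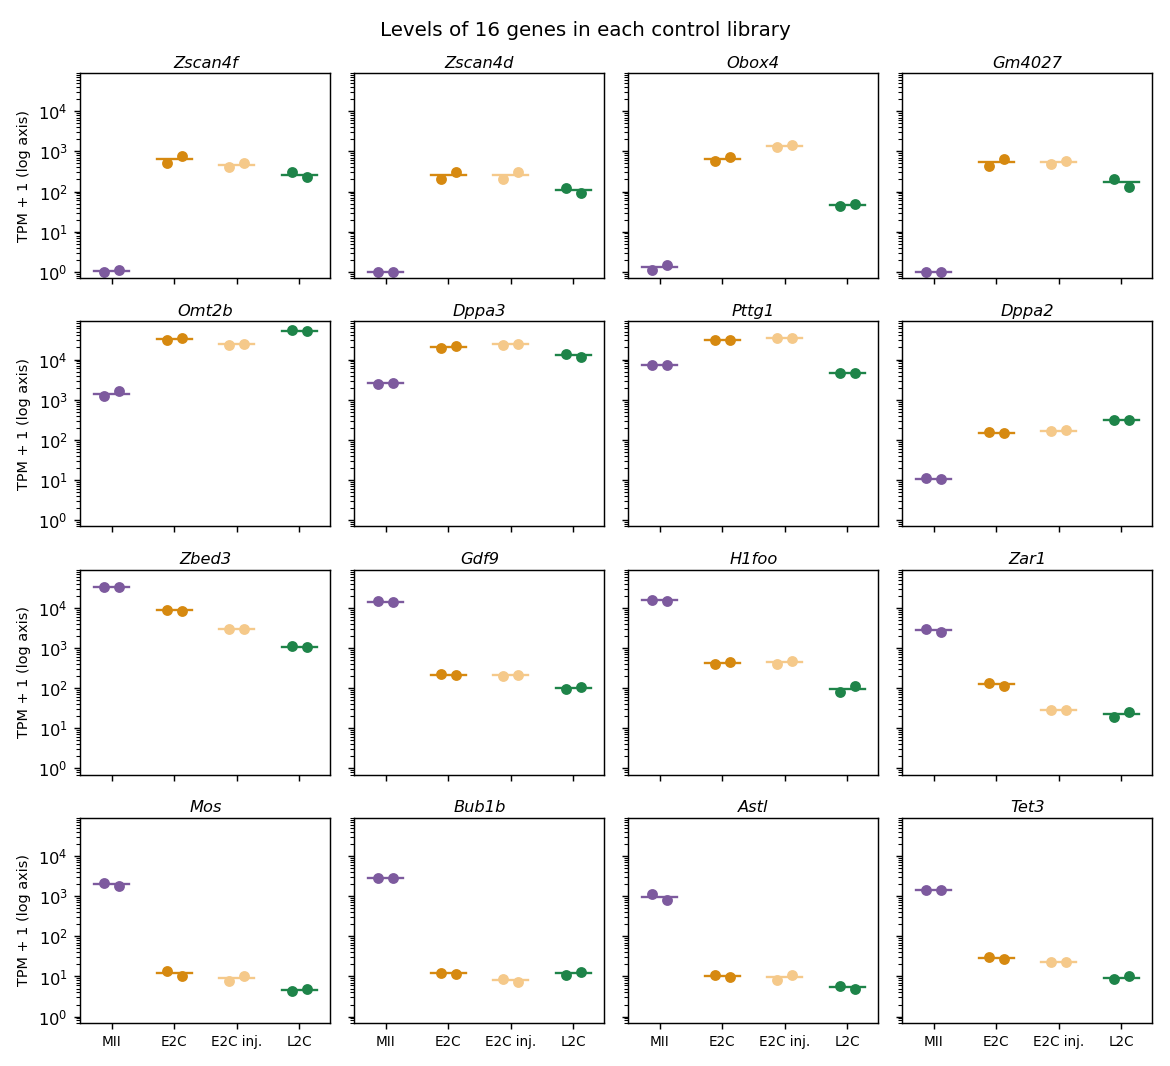
TPM + 1 on a log axis of 16 genes in each control library, with points for the 2 libraries and a line at their mean, in MII, E2C, mCherry-injected E2C (E2C inj., from another deposited table) and L2C. *Zscan4f* goes from 0 and 0.134 TPM in MII to 521 and 778 TPM in E2C and stays high in the injected libraries, while *Mos* goes from 2158 and 1773 TPM to 12.5 and 9.37 TPM and stays low.

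Early 2-cell genes, which mark minor genome activation, rose almost without exception. Of 59 genes on a list of such genes, 51 were in the table and 47 were tested, and 45 of the 47 were higher in E2C and none lower, against 31.2% and 34.4% of all genes. Of the 51, 25 were at 0 in both MII libraries. Such a gene could be tested only if both E2C libraries reached 1 TPM, so it could not come out lower. The level filter thus fixed the direction of many members in advance. Their median difference was 4.74, against -0.12 over all genes tested, and with length and GC centring 38 of 46 stayed higher with a median of 3.12. The summed TPM of the list was 147 and 121 in MII and 4018 and 5224 in E2C. Among these 47 are 2 pairs with the same values in every library (*BC061212* and *Gm7978*, *Gm6763* and *Gm8764*), so that 43 of 45 distinct members were higher. Many of the others (*Zscan4*, *Usp17l* and the *Gm4027* group) are near-identical copies among which the counting may split reads, and their sum is more certain than any single level. Without each library in turn, 44 or 45 stayed higher. The list and the libraries are not independent, since the list was taken up with these data known.

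*Zscan4* genes code for zinc finger proteins that are made in the 2-cell embryo and help to maintain telomeres. *Zscan4f*, at chr7:11397915-11402318 on GRCm38.p6, was at 0 and 0.134 TPM in MII and 521 and 778 TPM in E2C, a difference of 9.23 ± 0.22 (adjusted p = 8.3e-07, limma). *Zscan4d* was at 0 in both MII libraries and at 201 and 309 TPM in E2C (7.97 ± 0.24). *Zscan4c* went from 0.756 and 0 TPM to 191 and 308 TPM (7.52 ± 0.33). All were far above MII in both E2C libraries, and the second E2C library was the higher for each. The levels were not peculiar to the uninjected embryos: control E2C injected with mCherry, from another deposited table, had 411 and 515 TPM of *Zscan4f* and 203 and 312 TPM of *Zscan4d*. By L2C, *Zscan4f* was at 299.99 and 223 TPM and *Zscan4d* at 125 and 88.98 TPM.

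The 200 bases before the start sites of *Zscan4f*, *Zscan4d* and *Zscan4c*, from RefSeq on GRCm38.p6, are shown because these genes had some of the largest rises. Their levels are not independent, since the counting may split reads among near-identical copies. Capitals mark TATAAA, the core of the TATA box, and CCAAT, the NF-Y box. The windows are chr7:11397715-11397914 (+ strand), chr7:11166149-11166348 (- strand) and chr7:11005545-11005744 (+ strand).
Zscan4f: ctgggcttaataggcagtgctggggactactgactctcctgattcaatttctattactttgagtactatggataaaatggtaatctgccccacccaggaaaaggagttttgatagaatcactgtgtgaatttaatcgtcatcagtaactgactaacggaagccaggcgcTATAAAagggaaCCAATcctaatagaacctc
Zscan4d: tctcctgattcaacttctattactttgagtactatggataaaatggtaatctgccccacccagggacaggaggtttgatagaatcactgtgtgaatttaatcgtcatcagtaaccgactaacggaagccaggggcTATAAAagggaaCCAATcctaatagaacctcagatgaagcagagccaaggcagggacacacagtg
Zscan4c: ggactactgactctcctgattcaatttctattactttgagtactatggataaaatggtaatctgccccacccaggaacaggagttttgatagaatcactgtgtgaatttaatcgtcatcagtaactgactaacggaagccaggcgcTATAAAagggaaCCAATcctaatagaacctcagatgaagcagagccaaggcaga
Both strands were searched for these, for the GC box GGGCGG, for the Obox and Otx core TAATCC, for the nuclear receptor site AAGGTCA, for the ETS site CCGGAAG, for the double homeobox sites TGATTGA and (its variant) TGATTAA, and for the E box CACGTG; the matches shown do not overlap. TATAAA starts 31 bases before the annotated start of *Zscan4f*, 65 before that of *Zscan4d* and 54 before that of *Zscan4c*, and CCAAT lies 19, 53 and 42 bases before it. The longest run of identical bases is 99 between *Zscan4f* and *Zscan4c*, 50 between *Zscan4f* and *Zscan4d* and 55 between *Zscan4d* and *Zscan4c*. Of 27025 promoter windows of the same length, 10.6% held TATAAA and 30.02% CCAAT on either strand. A match describes these letters and not a bound site.

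For contrast, the same window is given for *Oog1* and *Bub1b*, both among the genes with the largest falls, at chr12:87602465-87602664 (+ strand) and chr2:118598011-118598210 (+ strand).
Oog1: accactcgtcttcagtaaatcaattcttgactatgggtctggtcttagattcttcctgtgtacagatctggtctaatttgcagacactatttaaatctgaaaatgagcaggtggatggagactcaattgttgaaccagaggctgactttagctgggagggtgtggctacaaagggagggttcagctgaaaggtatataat
Bub1b: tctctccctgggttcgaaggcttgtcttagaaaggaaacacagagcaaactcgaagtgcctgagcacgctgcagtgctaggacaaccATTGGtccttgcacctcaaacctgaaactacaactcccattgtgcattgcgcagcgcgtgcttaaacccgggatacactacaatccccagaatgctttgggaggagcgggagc
The *Oog1* window held none of these motifs, and the *Bub1b* window held CCAAT on the minus strand, printed as its complement in capitals, starting 113 bases before the start. The longest run shared between either of them and a *Zscan4* window was 8 bases. *Oog1* codes for a leucine-rich repeat protein of the PRAME family found in oocytes. It stood at 483 and 514 TPM in MII and 0 and 0.00132 TPM in E2C (-8.96 ± 0.15), was listed at 0 in both L2C libraries and was at 14.8 and 0.837 TPM in the injected E2C libraries. 

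Other early 2-cell genes followed the same course. *Dux*, whose product is a homeobox factor that can switch on 2-cell genes, was at 0.0967 and 0.324 TPM in MII and 37.6 and 29.6 TPM in E2C, 159.9-fold higher, and at 2.92 and 2.76 TPM in L2C. *Zfp352*, a zinc finger gene of the 2-cell embryo, rose from 0.0952 and 0 TPM to 53.4 and 65.2 TPM. *Usp17lb*, from a family of deubiquitinases, was at 0 in MII and at 58.5 and 68.6 TPM in E2C, and at 311 and 274 TPM in L2C. Both L2C libraries were thus below both E2C libraries for *Dux* and above them for *Usp17lb*. *Gm4027* was at 0 in MII and at 431 and 630.02 TPM in E2C (9.03 ± 0.21). *Arg2*, the mitochondrial arginase, was present in MII and rose from 20.02 and 10.1 TPM to 289 and 276 TPM, and the nuclear body gene *Sp110* rose from 42.4 and 38.5 TPM to 249.3 and 225 TPM. Both had been clearly detected in the oocyte, unlike the 25 members at 0 in both MII libraries. *Tcstv1* and *Tcstv3*, a pair of 2-cell genes, rose from 53.1 and 40.8 TPM to 161 and 194 TPM and from 9.59 and 8.398 TPM to 77.7 and 85.9 TPM, and lost the call with length and GC centring at 0.20 and 0.96. The 2 members that were not called were *Pramef17*, at 2.41 and 2.69 TPM in MII and 5.2001 and 4.92 TPM in E2C, and *Usp26*, at 3.44 and 2.89 TPM in MII and 2.26 and 2.21 TPM in E2C.

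The *Obox* homeobox genes, which act redundantly in genome activation, split into maternal and embryonic members. *Obox4* was at 0.103 and 0.458 TPM in MII and 589.97 and 724 TPM in E2C (9.01 ± 0.20, 2342-fold), and at 1302 and 1428 TPM in injected E2C and 43.02 and 47.5 TPM in L2C. *Obox3*, *Obox6* and *Crxos* were at 0 in both MII libraries, at 25.3 and 39.3, 10.1 and 18.1 and 26.4 and 39.3 TPM in E2C, and at 1080.1 and 707, 1088 and 813 and 3826 and 3276 TPM in L2C. So *Obox4* was highest at E2C, and these other 3 at L2C. The maternal member *Obox2* fell from 9979.9 and 10596 TPM to 3529.6 and 3678 TPM. *Obox1* was at 5780.3 and 6238 TPM in MII and 7335 and 8167 TPM in E2C, which is not a call (0.37 ± 0.10). Of 9 tested members 5 were higher and 1 lower (55.6% and 11.1%, against 31.2% and 34.4% of all genes). Their median of 2.41 turned to -0.36 with length and GC centring, where 3 of 8 were higher and 3 lower. *Obox4* has no length in the annotation used. Of 10 members with values 5 were at 0 in both MII libraries, and such a member could be tested only through E2C and could not come out lower.

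Outside these families, the largest rises among named genes included genes of the mitochondrion, the spliceosome and the testis. *Apoo*, a subunit of the complex that shapes mitochondrial cristae, rose from 7.94 and 20.8 TPM to 1752 and 1435 TPM (6.83 ± 0.38, 111-fold), with the MII libraries far apart from one another but both well below E2C. It was at 1575 and 1506 TPM in injected E2C and 179 and 234 TPM in L2C. *Cdc5l*, a core factor of the splicing complex around PRP19, rose from 0.562 and 0.705 TPM to 145 and 153 TPM (235-fold). *Iqcf5*, *Teddm1b* and *Rasl2-9* were at 0 in both MII libraries and at 149 and 127, 159.7 and 103 and 91.9 and 85.1 TPM in E2C. *Teddm1b* was low in the injected E2C libraries, at 4.13 and 3.78 TPM. The kit of each E2C library is not given, and the 2 E2C groups sit in separate deposited tables.

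A mean below 1 TPM in MII and of at least 10 TPM in E2C was found for 266 genes, 96 of them at 0 in both MII libraries. Of these 187 were protein-coding, 36 were long noncoding RNAs and 12 were small nucleolar RNAs. Together they took up 0.00908% and 0.00691% of TPM in the MII libraries and 1.32% and 1.41% in the E2C libraries. The median of their mean levels was 0.191 TPM in MII, 20.4 TPM in E2C, 13.9 TPM in injected E2C and 24.3 TPM in L2C. In the injected E2C libraries 159 of the 266 again reached 10 TPM and 31 were below 1 TPM. Length and GC centring kept the call of 254 of the 255 with a known length. The genes were chosen by their levels in these same MII and E2C libraries, so the size of the gap largely fixed this in advance. In the other direction, 211 genes went from at least 10 TPM to below 1 TPM, of which 207 were protein-coding and 4 were at 0 in both E2C libraries. Their median mean level was 21.7 TPM in MII, 0.591 TPM in E2C, 0.274 TPM in injected E2C and 0.774 TPM in L2C. *Icmt*, which methylates prenylated proteins, went from 378 and 294 TPM to 0.893 and 0.974 TPM. Centring kept the call of 204 of 210 of the genes that fell in this way, which were likewise chosen by the same levels. For both sets the MII and E2C levels follow from the choice.

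The genes with the largest falls belonged to several parts of oocyte biology. *Bub1b*, the spindle checkpoint gene of BUBR1, fell from 2849 and 2809 TPM to 11.3 and 10.6 TPM (-7.89 ± 0.10, adjusted p = 7.3e-07, limma). The 2 libraries of each stage were close, and both E2C libraries were far below both MII libraries. *Tnks1bp1*, a tankyrase-binding protein found with CCR4-NOT, fell from 351 and 348 TPM to 1.14 and 0.976 TPM. *Lamb1*, a laminin chain, fell from 2133 and 2075 TPM to 14.6 and 12.8 TPM, and *Upf1*, the helicase of nonsense-mediated decay, from 906 and 839 TPM to 5.64 and 4.15 TPM. *Amd2*, for S-adenosylmethionine decarboxylase, fell from 176 and 99.4 TPM to 0 in both E2C libraries, but the injected E2C libraries differed, at 83.5 and 0.909 TPM. The falls of *Bub1b* and *Upf1* persisted with length and GC centring, at -7.00 and -5.29.

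Genes that hold the egg in metaphase arrest or drive meiosis had 18 of 43 tested members lower and 9 higher (41.9% and 20.9%, against 34.4% and 31.2% of all genes; median -0.59; with length and GC centring 8 higher and 19 lower, with a median of -0.51). *Mos*, the kinase that keeps the egg arrested, fell from 2158 and 1773 TPM to 12.5 and 9.37 TPM (-7.37 ± 0.17, 179.9-fold). *Fbxo43*, whose product EMI2 inhibits the anaphase-promoting complex in the same arrest, fell from 210.3 and 268 TPM to 52.9 and 41.8 TPM, and *Aurkc*, the germ cell Aurora kinase, from 1271 and 1199 TPM to 462 and 486 TPM. *Ccnb1*, the cyclin B1 message, was at 2286 and 2106 TPM in MII and 2295 and 2566 TPM in E2C and was not called. By contrast, *Cdk1*, the mitotic kinase itself, rose from 5.38 and 3.29 TPM to 36.6 and 40.5 TPM, and the checkpoint kinase *Ttk* from 22.6 and 18.9 TPM to 241 and 199.95 TPM. Checkpoint genes thus differed in direction, and *Mad2l1*, another of them, rose from 492 and 535 TPM to 1553 and 1866 TPM.

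Of the genes that store maternal mRNA, 19 of 36 tested were lower in E2C and 3 higher (52.8% and 8.33%; median -1.19; with length and GC centring 2 higher and 15 lower, with a median of -0.81; without either E2C library in turn 15 or 16 lower and none higher). *Ybx2*, the gene of MSY2, a main packaging protein of stored mRNA, fell from 242 and 136 TPM to 65.4 and 59.8 TPM. *Zar1*, which binds maternal messages in the oocyte's storage domain, fell from 3005 and 2490.3 TPM to 136 and 109 TPM (-4.48 ± 0.15, 22.4-fold). *Cpeb1*, which controls the tails of stored messages, fell from 120.3 and 95.01 TPM to 30.98 and 23.3 TPM. *Pabpn1l*, an oocyte poly(A)-binding protein, fell from 1427 and 1400.4 TPM to 91.5 and 77.6 TPM, and *Lsm14b*, a storage-granule protein, from 1379.6 and 1776 TPM to 28.9 and 26.9 TPM. Both E2C libraries were below both MII libraries in all 5. *Tacc3*, a spindle protein also tied to CPEB, rose from 44.2 and 20.1 TPM to 115 and 107 TPM, with *Zar1l* and *Cpsf4l* as the other 2 members that rose.

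The machinery of deadenylation and decay had 22 of 50 tested members lower and 6 higher (44% and 12%, against 34.4% and 31.2% of all genes; median -0.67; with length and GC centring 6 higher and 18 lower, with a median of -0.47; without E2C replicate 1 only 3 higher, and under size factors 12). *Dcp1a*, a decapping cofactor, fell from 2515 and 2609 TPM to 54.7 and 39.8 TPM. *Cnot8*, a catalytic deadenylase, fell from 98.9 and 174 TPM to 66.4 and 58.7 TPM. The factors best known for clearing messages in the egg did not follow. *Btg4* was at 4474 and 5108 TPM in MII and 8119.7 and 9296 TPM in E2C and its difference of 0.86 ± 0.11 was below the size set for a call (adjusted p = 3.5e-04, limma). *Cnot7* was at 621 and 758 TPM in MII and 985 and 1012 TPM in E2C, and *Cnot6l* at 319.9 and 290.2 TPM in MII and 341 and 256 TPM in E2C. *Lsm1*, of the ring that promotes decapping, rose from 27.9 and 28.6 TPM to 122 and 131 TPM, *Cnot4* from 34.6 and 35.7 TPM to 132 and 117 TPM and the decapping enzyme *Dcp2* from 19.98 and 19.4 TPM to 66.3 and 58.2 TPM. The calls of *Lsm1* and *Cnot4* were lost with length and GC centring, at 0.97 and 0.96, and that of *Dcp2* was not, at 2.21.

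Among maternal-effect genes, whose products from the egg are needed by the embryo, 22 of 44 tested were lower and 12 higher (50% and 27.3%; median -0.96; with length and GC centring 8 higher and 23 lower, with a median of -1.08). The members of the subcortical maternal complex did not move as one. *Nlrp5* fell from 669.6 and 363 TPM to 165 and 154 TPM, *Tle6* from 715 and 505 TPM to 45.7 and 32.4 TPM and *Khdc3* from 105 and 55.4 TPM to 12.4 and 11.2 TPM. *Ooep*, for another subunit of the same complex, rose from 331 and 165 TPM to 1324 and 1261 TPM (2.46 ± 0.29, centred 1.33). For *Nlrp5*, *Khdc3* and *Ooep* MII replicate 1 was well above replicate 2, yet both lay on the same side of E2C. *Npm2*, the nucleoplasmin that remodels sperm chromatin, rose from 159 and 96.7 TPM to 1207 and 1102 TPM, and *Ube2a*, a ubiquitin-conjugating enzyme, from 15.6 and 9.15 TPM to 219 and 215 TPM. *Trim28*, a corepressor needed to keep imprints, fell from 613 and 603 TPM to 5.76 and 4.87 TPM, and *Cdh1*, E-cadherin, from 667 and 630.4 TPM to 5.59 and 4.05 TPM.

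Of genes for the zona pellucida and secreted oocyte proteins, 7 of 16 were lower and 4 higher (43.8% and 25%; median -0.49; with length and GC centring 1 higher and 11 lower, with a median of -1.92). *Zp3*, the gene of a main zona glycoprotein, fell from 707 and 417 TPM to 37.1 and 33.6 TPM. *Zp1* fell from 248 and 184 TPM to 25.1 and 33.1 TPM and *Zp2* from 348 and 208 TPM to 97.5 and 100.1 TPM. *Astl*, whose protease ovastacin cuts ZP2 after fertilisation to block more sperm, fell from 1112 and 825 TPM to 9.97 and 8.63 TPM (-6.54 ± 0.17). *Bmp15*, the partner growth factor of GDF9, was at 1879 and 1118 TPM in MII and 1168 and 1099.8 TPM in E2C and was not called. *Oosp2* rose from 127 and 114 TPM to 1035 and 842 TPM and *Cd9*, the egg surface protein needed for fusion with sperm, from 42.6 and 23.4 TPM to 112 and 119 TPM. With centring neither *Oosp2* nor *Cd9* was called, at 0.67 and 0.13.

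**Figure D4:**
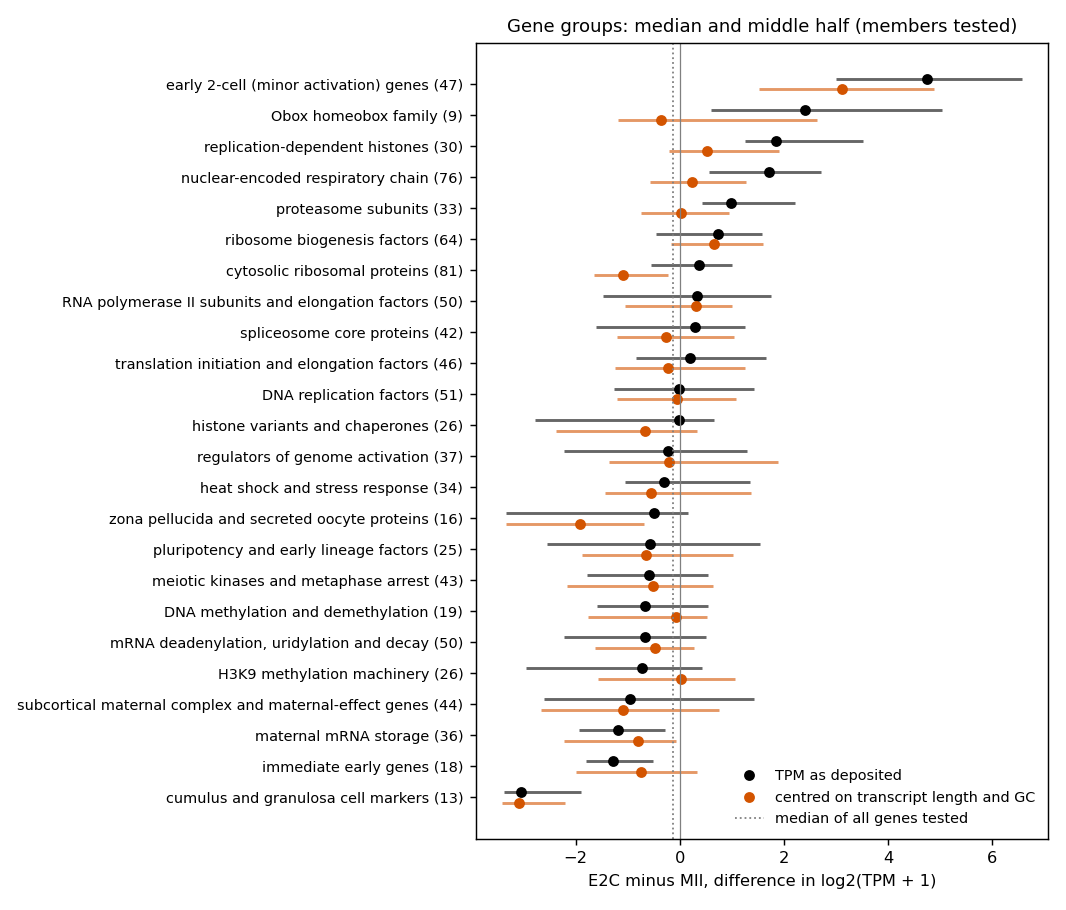
For each group of genes with at least 9 tested members, and with the number of members tested, the point is the median and the bar the interquartile range of the members' differences between control E2C and MII on the log2(TPM + 1) scale, from TPM as deposited (black) and after centring on length and GC (orange); the dotted line is the median of all genes, -0.12. Early 2-cell genes lie far to the right under both, storage and cumulus genes to the left under both, and the medians of the *Obox* genes, ribosomal proteins, spliceosome, translation factors and H3K9 methylation genes change sign with centring.

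Regulators of genome activation moved both ways, with 12 of 37 tested members higher in E2C and 15 lower (32.4% and 40.5%, against 31.2% and 34.4% of all genes; with length and GC centring 14 higher and 13 lower, with a median of -0.20; median as deposited -0.23, which turned to 0.03 when TPM was scaled by size factors). *Dppa2* and *Dppa4*, a pair that acts upstream of *Dux*, rose from 10.3 and 9.3001 TPM to 152 and 149 TPM and from 1.18 and 0.186 TPM to 17.9 and 20.2 TPM. In L2C *Dppa4* stood at 777 and 698 TPM. *Nfya*, a subunit of NF-Y, fell from 763 and 780.1 TPM to 18.6 and 15.3 TPM, and *Nelfa*, a pausing factor that can activate *Dux*, from 331 and 302 TPM to 44.6 and 37.3 TPM. *Nr5a2*, a nuclear receptor, was at 12.9 and 12.1 TPM in MII and 8.81 and 7.36 TPM in E2C. None of these genes' libraries overlapped between stages, which a call nearly requires, and *Nr5a2* was below the size set for a call. RNA polymerase II subunits and elongation factors had 19 of 50 tested members higher in E2C and 16 lower (38% and 32%; with centring 12 higher and 13 lower, with a median of 0.31). *Polr2a*, the largest subunit, fell from 24.2 and 26.1 TPM to 1.45 and 2.07 TPM, whereas the small subunit *Polr2g* rose from 98.6 and 92.1 TPM to 799 and 824 TPM, a rise that was not called with length and GC centring (0.99).

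Chromatin genes included the demethylases the series is about. *Kdm3a* was low in the control oocyte and fell from 8.08 and 8.83 TPM to 2.59 and 2.07 TPM (-1.51 ± 0.21), and *Kdm3b* fell from 26.6 and 24.97 TPM to 1.05 and 0.4004 TPM (-3.98 ± 0.25). In mDKO they were at 0.725 and 0.718 TPM and 1.75 and 1.87 TPM in MII, below control. Of the H3K9 methylation machinery 11 of 26 were lower and 6 higher, with a median of -0.72, and length and GC centring gave 7 higher and 9 lower, with a median of 0.03. *Suv39h1*, an H3K9 trimethylase, rose from 0.338 and 0.604 TPM to 22.7 and 21.7 TPM. Among genes of DNA methylation, 8 of 19 were lower and 2 higher (median -0.67; centred 3 higher and 7 lower, with a median of -0.08). *Tet3*, which oxidises methylated cytosine in the zygote, fell from 1451 and 1403 TPM to 29.3 and 25.8 TPM. *Dnmt1*, the maintenance methyltransferase, fell from 722 and 416 TPM to 49.7 and 39.5 TPM, and its partner *Uhrf1* from 649 and 577 TPM to 53.4 and 43.5 TPM. Histone variants and their chaperones had 6 of 26 higher and 8 lower, with a median of -0.02 that turned to 0.29 under size factors; with length and GC centring there were 4 higher and 10 lower, with a median of -0.67.

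Among housekeeping groups, the count of respiratory chain and proteasome genes called higher was above the share of all genes as deposited and smaller after length and GC centring. Of the nuclear-encoded respiratory chain, 48 of 76 were higher (63.2%) and 5 lower (2 lower without either E2C library and 3 without MII replicate 2; median 1.71), against 21 higher and 13 lower, with a median of 0.24 after centring. Their summed TPM was 4493 and 3979 in MII and 16585 and 15410.1 in E2C, but 9803 and 8522 in injected E2C. *Cox5a*, of cytochrome oxidase, rose from 158 and 146 TPM to 2121 and 2155 TPM and was at 164 and 93.5 TPM in injected E2C, close to MII. *Ndufb2*, of complex I, rose from 26.6 and 21.5 TPM to 566 and 521 TPM and kept a centred difference of 4.82. Proteasome subunits had 16 of 33 higher (48.5%) and 1 lower (median 0.99; centred 8 higher and 6 lower, with a median of 0.02), with *Psma6* rising from 16.3 and 18.4 TPM to 207 and 199.6 TPM and *Psmd3* falling from 609 and 594 TPM to 18.3 and 20.6 TPM. Of the cytosolic ribosomal proteins, 21 of 81 were higher, which is 25.9% and below the 31.2% of all genes, and 8 lower (9.88%). The higher count was 13 without E2C replicate 2 and 36 under quantile normalization, and centring gave 6 higher and 43 lower, with a median of -1.08 in place of 0.36. *Rps27l* rose from 573 and 583 TPM to 6546 and 6607 TPM, and *Rplp1* fell from 248 and 197 TPM to 61.6 and 68.3 TPM. Spliceosome proteins had 13 of 42 higher and 15 lower (31% and 35.7%; median 0.30; centred 11 higher and 13 lower, with a median of -0.27), and translation factors 16 of 46 and 10 (34.8% and 21.7%; median 0.19; centred 13 higher and 13 lower, with a median of -0.23).

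In the bin of shortest transcripts the median difference of injected minus uninjected control E2C was -0.45 on the log2(TPM + 1) scale, against -0.24 to -0.18 in the other 9 bins. Replication-dependent histones, whose messages mostly lack a poly(A) tail, were also lower in the injected libraries. Of 67 members 42 were at 0 in both MII libraries. A gene at 0 there could be tested only through E2C and could not come out lower. Of 30 tested 22 were higher in E2C and 2 lower (73.3% and 6.67%, against 31.2% and 34.4% of all genes). Their median was 1.86, and centring gave 13 higher and 4 lower, with a median of 0.51. The summed TPM of the 67 was 341 and 237 in MII, 981 and 994 in E2C and 298 and 184 in injected E2C. *Hist1h2ao* was at 0 in MII, at 63.2 and 50.5 TPM in E2C and at 0 in injected E2C. *Hist2h2aa1* was at 8.35 and 3.695 TPM in MII, 241 and 262 TPM in E2C and 9.57 and 5.19 TPM in injected E2C. Between the 2 groups of control E2C *Hist1h2ao* thus differed by as much as between MII and E2C, and *Hist2h2aa1* by nearly as much. These libraries also differ in injection and in the table they come from.

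The counts of ribosome biogenesis genes changed little with centring. Of 64 tested factors 28 were higher and 14 lower (median 0.72), and 26 higher and 13 lower, with a median of 0.66 after centring; without 1 library in turn 20 to 30 were higher. *Ncl*, nucleolin, rose from 15.3 and 17.9 TPM to 64.1 and 55.6 TPM. The box C/D protein *Nop56* rose from 8.69 and 3.36 TPM to 53.6 and 48.01 TPM, the box H/ACA protein *Nhp2* from 3.92 and 3.27 TPM to 69.6 and 65.9 TPM, and *Taf1d*, a subunit of the RNA polymerase I factor SL1, from 1.69 and 1.17 TPM to 69.1 and 60.2 TPM. In L2C *Taf1d* was at 908 and 761 TPM. *Urb1*, a factor of the large ribosomal subunit, fell from 54.2 and 49.5 TPM to 1.71 and 0.989 TPM, and *Fbl*, the fibrillarin methylase, from 33.4 and 27.6 TPM to 7.88 and 9.29 TPM.

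Pluripotency and early lineage factors had 9 of 25 tested members higher in E2C and 11 lower (36% and 44%; median -0.58; centred 7 higher and 9 lower, with a median of -0.65). *Pou5f1*, the OCT4 gene, fell from 389 and 366 TPM to 72.03 and 56.3 TPM, *Sall4* from 829 and 763 TPM to 22.4 and 25.8 TPM and the RNA-binding *Lin28a* from 364 and 358 TPM to 11.96 and 11.4 TPM. The trophectoderm factor *Gata3* rose from 4.36 and 3.56 TPM to 24.3 and 21.8 TPM. Of DNA replication factors 16 of 51 were higher and 15 lower (31.4% and 29.4%, near the shares of all genes; centred 13 higher and 15 lower, with a median of -0.05). Immediate early genes, which respond within minutes to stimuli, had 11 of 18 lower and 1 higher (median -1.29; centred 1 higher and 7 lower, with a median of -0.75), mostly from a few TPM. The heat shock and stress list had 10 of 34 higher and 9 lower (centred 10 higher and 12 lower, with a median of -0.54), with a median as deposited of -0.31 that turned to 0.02 under size factors and 0.16 under quantile normalization. Its largest rises were *Dnajb9*, a chaperone of the endoplasmic reticulum, from 1.77 and 3.42 TPM to 63.9 and 74.3 TPM, and *Ddit3*, the CHOP factor, from 4.99 and 3.87 TPM to 80.9 and 72.7 TPM.

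Markers of the cells that surround the egg moved with stage. All but 1 of 13 tested cumulus and granulosa markers were lower in E2C (12 as fitted, and 5 without either E2C library in turn), with a median of -3.04 (centred 0 higher and 12 lower, with a median of -3.09); their summed TPM was 946 and 1147 in MII and 118 and 115 in E2C. Most of that sum was *Serpine2*, at 820.2 and 882 TPM in MII and 89.2 and 85.1 TPM in E2C. The defining genes *Ptx3* and *Inha* were at 5.02 and 14.4 TPM and 16.2 and 40.9 TPM in MII, and at 0 and 0.252 TPM and 0 and 0 TPM in E2C. MII replicate 2 was above replicate 1 for both. A marker at 0 in both E2C libraries, such as *Inha*, could be tested only through MII and could not come out higher. These markers moved with every group described above as falling, and their part in those falls was not tested. Of 24 sperm and spermatid markers 16 were at 0 in both MII libraries, and such a marker could be tested only through E2C. Of 5 tested 3 were higher and 1 lower (60% and 20%, against 31.2% and 34.4% of all genes), with a median of 1.12. After centring 2 were higher and 2 lower, with a median of -0.66. *Prm2*, a protamine, was among those called higher, at 3.36 and 3.19 TPM in MII and 34.9 and 48.3 TPM in E2C. *Odf2* was the member called lower, and *Prm1* was at 0 in all 4 libraries. The summed TPM of the 24 went the other way from *Prm2*, at 353 and 357 in MII and 131 and 133 in E2C. Of 5 blood markers tested *Hba-a1* was higher, at 0 in MII and 10.3 and 17.7 TPM in E2C, and none was lower (centred 2 higher and 2 lower, with a median of 0.24). The summed TPM of Y-linked genes was 0 in both MII libraries and 2.58 and 2.87 in E2C, and 42.7 and 44.7 in L2C.

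Of 436 tested genes on the X chromosome 42.7% were called higher and 23.6% lower as deposited, against 30.7% and 34.8% of genes placed on the other chromosomes. They had a median transcript length of 2649.5 nt, and after length and GC centring 22.3% were higher and 27.7% lower, against 24.8% and 30.8% of the others.

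The same transition in mDKO gave 3288 genes higher in E2C (28.6% of 11492 tested) and 3861 lower (33.6%). The control and mDKO libraries were 4 separate pools each, but the kits differed between MII and E2C in both genotypes. Calls shared by the genotypes therefore cannot tell stage from kit. Of 11098 genes tested in both, 2873 were higher in both, which is 85.5% of the control's and 90.2% of the mDKO's, and 3491 were lower in both, 87.7% and 92.4%. In each direction 1 gene was called the opposite way. A test of the difference between the 2 transitions called 241 of 12642 genes as more positive in control (1.91%) and 169 as more negative (1.34%). These counts rest on few libraries: they fell to 56 and 33 without E2C control replicate 2, and the second rose to 357 without E2C mDKO replicate 2.

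In that test the rise was larger in control for 33 of 47 early 2-cell genes tested, against 1.91% of all genes, and smaller for none, and for 18 to 31 with 1 of the 8 libraries left out. All 47 were tested in control and only 42 in mDKO, so the others passed the filter through control libraries. A member at 0 in MII that passed only through control E2C could hardly come out smaller. As above, the list holds 2 pairs with the same values and was taken up with these data known. Of 42 members tested in both genotypes 38 had the larger difference in control, with medians of 4.88 in control and 3.14 in mDKO. The genotype difference moved with transcript length (Spearman's rho -0.21 across 12537 genes) and was not centred on length and GC. The tested early 2-cell genes had a median length of 1853 nt, against 3162.5 nt for all genes tested in control. The kit of each E2C library is not recorded. Any part of length or kit in the genotype difference was not tested. The summed TPM of the list in E2C was 4018 and 5224 in control and 1249 and 1398 in mDKO. *Zscan4f* reached 45.99 and 70.1 TPM in mDKO E2C, *Zscan4d* 27.4 and 36.5 TPM and *Gm4027* 72.5 and 72.2 TPM. All these values were above the mDKO MII libraries and below both control E2C libraries. *Obox4* reached 228 and 308 TPM. *Dppa3*, a maternal message, was at 22301 and 23544 TPM in mDKO E2C, and its rise differed by 0.12 between genotypes, which was not called.

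**Figure D5:**
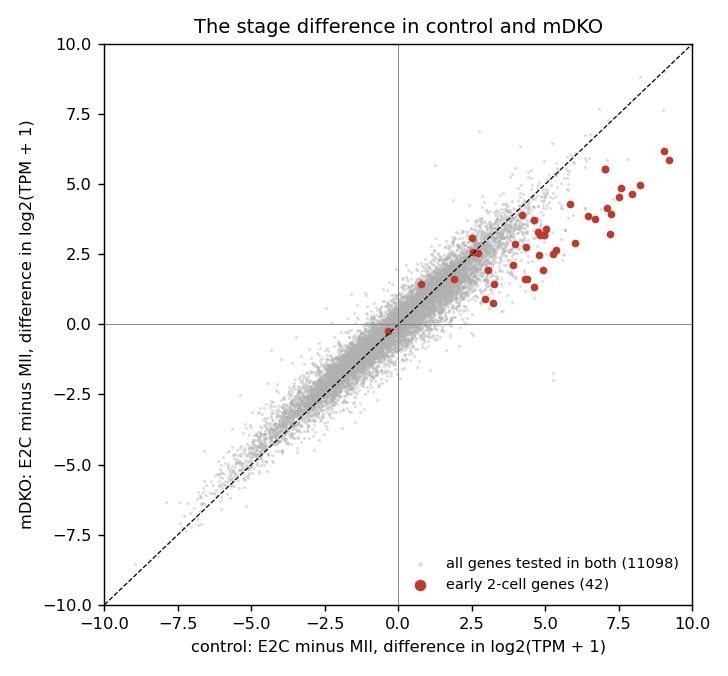
Each point is 1 of 11098 genes tested in both genotypes, with its difference between E2C and MII in control on the x axis and in mDKO on the y axis, both on the log2(TPM + 1) scale, and the dashed line marks equal differences. The 42 early 2-cell genes (red) lie mostly below the line, 38 of them with the larger difference in control.

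Several maternal messages fell further in control than in mDKO. *H1foo* was at 16377 and 17845 TPM in mDKO MII, near its control level, and at 1474 and 1456 TPM in mDKO E2C against 389 and 435 TPM in control E2C. *Bub1b* was at 2673 and 2806 TPM and then 34.6 and 30.9 TPM in mDKO. Both kept the call with any 1 of the 8 libraries left out. *Zar1* was at 3422 and 3490.5 TPM and then 403 and 287 TPM, and *Trim28* at 532 and 596 TPM and then 33.5 and 16.9 TPM; their calls held in 1 and 2 of 8 such fits. Of the storage group 19 of 36 members fell in control and 16 in mDKO, and of the meiotic group 18 of 43 in control and 21 in mDKO. Of all genes tested 34.4% were lower in control and 33.6% in mDKO. The meiotic count was thus the larger in mDKO, and such counts do not measure how far a message fell.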

How the data were processed

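Gene TPM values were used as the authors deposited them: polyA RNA was sequenced in pairs, per the labels' protocols, and the submitters' processing notes list RSEM 1.3.1, SAMtools 1.9, STAR 2.7.10b, Bowtie2 2.3.4.1 and mm10, without roles. Neither the sequencer nor the E2C kit is recorded per library. The deposited TPM of each library sum to the same total, so neither depth nor counting error is known and no interval from counts is given. Groups came from the sample titles, and the control MII, E2C and L2C and mDKO libraries share 1 deposited table; the mCherry-injected control E2C libraries come from another.

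Genes at 1 TPM or more in at least 2 of the 4 libraries were tested on log2(TPM + 1) with limma 3.58.1 (R 4.3.3, trended variance, two-sided), 2 libraries against 2, with Benjamini-Hochberg adjustment over all genes tested. A call needed an adjusted p under 0.05 and a difference of at least 1. An exact permutation test of a single gene cannot go below 0.333 here. The difference between genotypes was an interaction term over 8 libraries. The code was tested on simulated data. Transcript length and GC were those of the longest GENCODE M21 transcript of each gene (24021 genes matched by symbol). Coordinates and promoters came from RefSeq on GRCm38.p6 (24262 matched). Length and GC centring used 10 by 10 bins.

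The members and gene lists were chosen with earlier results of these data known. Named genes are, per direction, the 10 with the largest called difference and a mean of at least 5 TPM, leaving out predicted genes, clones and small RNAs (*Vaultrc5* was left out as one); the 5 most abundant per stage; of each list its first 4 members and its 2 largest called differences per direction; and the 8 genes per direction that differed most between genotypes. Other genes were named for a known role after their values were seen. Mitochondrially encoded transcripts were not analysed here, and some genes that the rule names are not reported here. Alternatives were another pseudocount (0.1), no filter, a mean of at least 5 TPM, size factors, quantile normalization, a replicate block, all 12 uninjected libraries in 1 fit and each library left out.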

Additional observations from a re-analysis of the deposited data

Results flagged for a closer look

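The named genes below were picked out because their change from MII to E2C differed between control and mDKO by limma's interaction term (adjusted p under 0.05, at least 1 on the log2(TPM + 1) scale). Each value is the control difference minus the mDKO difference. More positive in control were the early 2-cell genes *Zscan4f* (3.37), *Zscan4d* (3.33), *Zscan4a* (3.31), *Zscan4c* (2.99), *Usp17lb* (3.11) and *Gm4027* (2.83), and the homeobox genes *Obox3* (2.52), *Crxos* (1.54) and *Obox4* (1.38). So were *Gadd45g* (3.69), a growth arrest gene at 24.6 and 28.6 TPM in control E2C and 4.29 and 3.18 TPM in mDKO E2C, and *Cypt3* (3.18) and *Cypt2* (3.10), a pair of spermatid genes at 0 in every MII library. *Cypt2* reached 17.3 and 20.04 TPM in control E2C and 1.27 and 1.301 TPM in mDKO E2C. The rest were *Hba-a1* (3.38), *Dnajb9* (1.74), *Prm2* (1.56), *Dnmt3l* (1.46) and *Rplp1* (1.23). *Cypt3* and *Hba-a1* were too low to be tested in mDKO alone and passed the filter through control E2C. Their direction was thus largely fixed in advance, also in the fits with 1 library left out. For *Dnmt3l* and *Rplp1* the E2C levels were close, and the mDKO MII libraries were higher, at 247 and 198 TPM and 556 and 420.3 TPM against 120.4 and 85.9 TPM and 248 and 197 TPM in control.

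More negative in control were *Urb1* (-3.79), *Fam83d* (-3.43), *Pelo* (-3.02), *Adam8* (-2.93), *Tmem30b* (-2.87) and *Trim62* (-2.47), and the targeted genes *Kdm3b* (-2.76) and *Kdm3a* (-1.40). All 8 were already low in mDKO MII: *Urb1* was at 1.27 and 0.799 TPM there against 54.2 and 49.5 TPM in control, *Tmem30b* at 4.48 and 5.69 TPM against 113 and 103 TPM, and *Pelo* at 0.681 and 1.35 TPM against 50.3 and 47.9 TPM. *Urb1*, *Adam8*, *Trim62* and *Kdm3a* were likewise not tested in mDKO alone and passed the filter through control libraries. *Hist1h2ba* (-2.56) was higher in mDKO E2C, at 40.6 and 52.2 TPM against 26.2 and 18.8 TPM. *Trim28* (-2.09), *Prim2* (-1.67), *H1foo* (-1.67), *Bub1b* (-1.55) and *Zar1* (-1.14) fell in both genotypes and less far in mDKO. With each of the 8 libraries left out in turn, *Gadd45g*, *Zscan4f*, *Zscan4d*, *Zscan4a*, *Cypt3*, *Cypt2*, *Usp17lb*, *Gm4027*, *Bub1b*, *H1foo*, *Trim62*, *Kdm3b*, *Tmem30b*, *Adam8*, *Fam83d* and *Urb1* were called in all 8 fits. *Pelo* was called in 7 and *Hba-a1* in 6. *Obox3* and *Hist1h2ba* were called in 4 and *Prim2* in 3. *Zscan4c*, *Dnajb9* and *Trim28* were called in 2, *Crxos*, *Dnmt3l*, *Obox4*, *Rplp1*, *Zar1* and *Kdm3a* in 1, and *Prm2* in none.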

How the results depend on the processing

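Every alternative kept stage and kit together, and read depth is unknown. The count of genes higher in control E2C was 3724 as fitted, 2460 with a mean of at least 5 TPM, and 2908 to 3811 with 1 library left out; choosing genes on the remaining libraries, an alternative chosen after seeing the data, gave 2381 to 3811. The count lower was 4104, and 3527 to 4138 or 3265 to 4102 in the same fits. Size factors moved the median of all genes from -0.12 to 0.17 and the split to 4292 higher and 3508 lower, and quantile normalization gave 3902 and 3919. The mDKO counts stayed within 1.5 times, at 2838 to 3251 higher and 3320 to 3765 lower with 1 library left out.

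The genes more positive in control than in mDKO numbered 241 as fitted, 89 with a pseudocount of 0.1, 103 with no filter, 152 with a mean of at least 5 TPM, and 56 to 230 with 1 library left out (40 to 242 with genes chosen again). Those more negative numbered 169, then 63 with a pseudocount of 0.1, 68 with no filter, and 30 to 357 with 1 library left out (31 to 364). The cause was not tested.

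Length and GC centring turned 6 named genes, *Rplp0* to -0.0429, *Rplp2* to -0.37, *Snrpd1* to -0.72, *Ndufa1* to -0.60, *Ndufa4* to -0.63 and *Dnmt3a* to 0.29. These 6 lost their call as well, and they come on top of the 20 given next. Of 198 named genes, 20 lost and 12 gained a call with centring, and 22 and 20 lost it without E2C control replicate 1 and replicate 2.

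Libraries of the same number shared only a number: their deviations correlated at 0.006 in control and 0.038 in mDKO, over 2 pairs each. A replicate block gave 3743 higher and 4112 lower in control, 3299 and 3876 in mDKO, and 238 and 177 for the difference between them.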
